A study of Mus musculus with 2 samples.

Results

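The cells described here are the hepatic stellate cells of replicate 2 of a droplet single-cell RNA sequencing study of healthy mouse liver. The cells were chosen by their UMI counts, as the cells of replicate 2 with at least 10 UMIs, that is, counted molecules, over the stellate genes Lrat, Dcn, Reln, Colec11 and Ecm1. All 2341 cells of replicate 2 met this rule, of 9703 cells in the whole table. Both replicates are wild-type (WT) livers of C57BL/6 mice aged 8 weeks, with no treatment named, dissociated with enzymes, spun on a Percoll gradient and made into libraries with a 10x Genomics 3′ v2 kit. The substrain, the sex and whether the replicates came from separate animals are not given in the labels. The reference was the pool of the 6765 cells of replicate 1 with at most 20% mitochondrial UMIs, which holds endothelial cells, Kupffer cells and other liver types. Cell type and library coincide in this comparison, so each difference between the stellate cells and the pool may belong to the type or to the library, and these cannot be told apart. With 1 library on each side no test was possible, and intervals cover counting error only.

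Stellate cells are pericyte-like mesenchymal cells that lie between the hepatocytes and the endothelium of the liver sinusoid. In the healthy liver they store vitamin A as retinyl esters, which Lrat, the lecithin retinol acyltransferase, makes from retinol. They signal to the neighbouring endothelial cells and macrophages, regulate the width of the sinusoid, and after injury become the matrix-producing myofibroblasts of fibrosis.

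The library held 11867207 UMIs in its stellate cells, 1263 to 13401 per cell with a median of 5012, and the pool held 37685315 UMIs, 503 to 66125 per cell with a median of 4719. The median mitochondrial share was 1.55% in the stellate cells and 3.33% in the pool. The libraries shared 5 cell barcodes, which were kept as separate cells. The rule removed no cell of replicate 2, whose lowest sums over the 5 genes were 14, 29, 30, 30 and 31 UMIs, with a median of 213. The cell at 14 lay close to the limit of 10. In the pool 354 cells also reached 10 UMIs. These were mostly mesothelial (174) and portal fibroblast cells (117), and 7 of them belonged to the small stellate-like class of replicate 1.

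The genes that chose the cells are given as a description. Levels are in CPM, which are the UMIs of a gene per 1000000 UMIs of all genes in the same group of cells. Dcn, the collagen-binding proteoglycan decorin, stood at 27290 CPM in the stellate cells and 785 CPM in the pool, and had a UMI in 100% of the stellate cells. Colec11, a collectin of the complement system, stood at 4637 CPM in the stellate cells and 17.1 CPM in the pool. Lrat stood at 1120 CPM in the stellate cells and 7.59 CPM in the pool, and was seen in 96.5% of the stellate cells. Reln, the secreted glycoprotein reelin, was at 0 in 3 of the cells and Ecm1, the extracellular matrix protein 1, in 1.

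Defining genes of other liver types were mostly lower than in the pool. The summed level of 9 hepatocyte markers was 101 CPM in the stellate cells, against 492 to 5859 CPM in the non-hepatocyte classes of replicate 1. Of the 7 mesothelial markers 6 were at 0 UMIs, as were 7 of 8 T and NK cell markers and all 4 neutrophil markers measured. The summed level of 7 Kupffer cell markers was 94.6 CPM in the stellate cells and 7141 CPM in the pool. The 7 sinusoidal endothelial markers summed to 830 CPM in the stellate cells, against 5017 CPM in the pool and 12240 CPM in their own class, and 29.5% of the stellate cells held at least 5 of these UMIs. Its part in the results was not tested. Smooth muscle markers differed among themselves, since Des, Mylk and Tagln were at least 2-fold higher in the stellate cells than in the pool whereas Cnn1 and Actg2, which mark differentiated smooth muscle, were at 0. Over the 4 markers Myh11, Acta2, Cnn1 and Actg2, 5 of the 2341 cells held at least 5 UMIs. Over all 8 smooth muscle markers, of which 3 were higher and 4 lower than in the pool, 932 cells (39.8%) did. The 8 summed to 882 CPM in the stellate cells and 183 CPM in the pool. In a finer clustering, 175 cells of replicate 2 fell in a cluster named smooth muscle, led by Myl9 and Tagln.

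Of 15139 genes with at least 50 UMIs over both groups, 1805 (11.9%) were at least 2-fold higher in the stellate cells than in the pool and 4374 (28.9%) at least 2-fold lower. The remaining 8960 lay within 2-fold. The median log2 fold of all these genes was -0.22, so changes are best read against that shift. A difference of 8-fold or more was reached by 461 higher and 1932 lower genes, and 1164 had no UMI in the stellate cells. A small number of genes carried much of the RNA: the 10 most abundant genes took 13.9% of the UMIs in the stellate cells and 9.34% in the pool.

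The genes with the largest folds over the pool included secreted factors, receptors and a LIM homeobox factor. Nr1h5, a nuclear receptor of the farnesoid X receptor family, stood at 179 CPM in the stellate cells and 0.27 CPM in the pool, a 675-fold difference (366 to 1410). Hhip, a secreted decoy that binds Hedgehog ligands, stood at 526 CPM in the stellate cells and 1.19 CPM in the pool, a 441-fold difference (329 to 605). Lhx2, a LIM homeobox factor that is known to restrain stellate cell activation in the mouse, stood at 374 CPM in the stellate cells and 1.22 CPM in the pool. All 3 were seen in most stellate cells, Nr1h5 in 55.9%, Hhip in 83.1% and Lhx2 in 77.6%, against 0.148%, 0.399% and 0.458% of pool cells at a similar median depth. Angptl6, a secreted angiopoietin-like protein, had 1674 CPM in the stellate cells and 5.15 CPM in the pool. The BMP ligands Gdf2 and Bmp10, which act on the endothelial receptor Acvrl1, had 863 and 238 CPM in the stellate cells, against 5.15 and 0.82 CPM in the pool. Another BMP ligand, Bmp5, had 647 CPM in the stellate cells and 2.87 CPM in the pool.

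**Figure D1:**
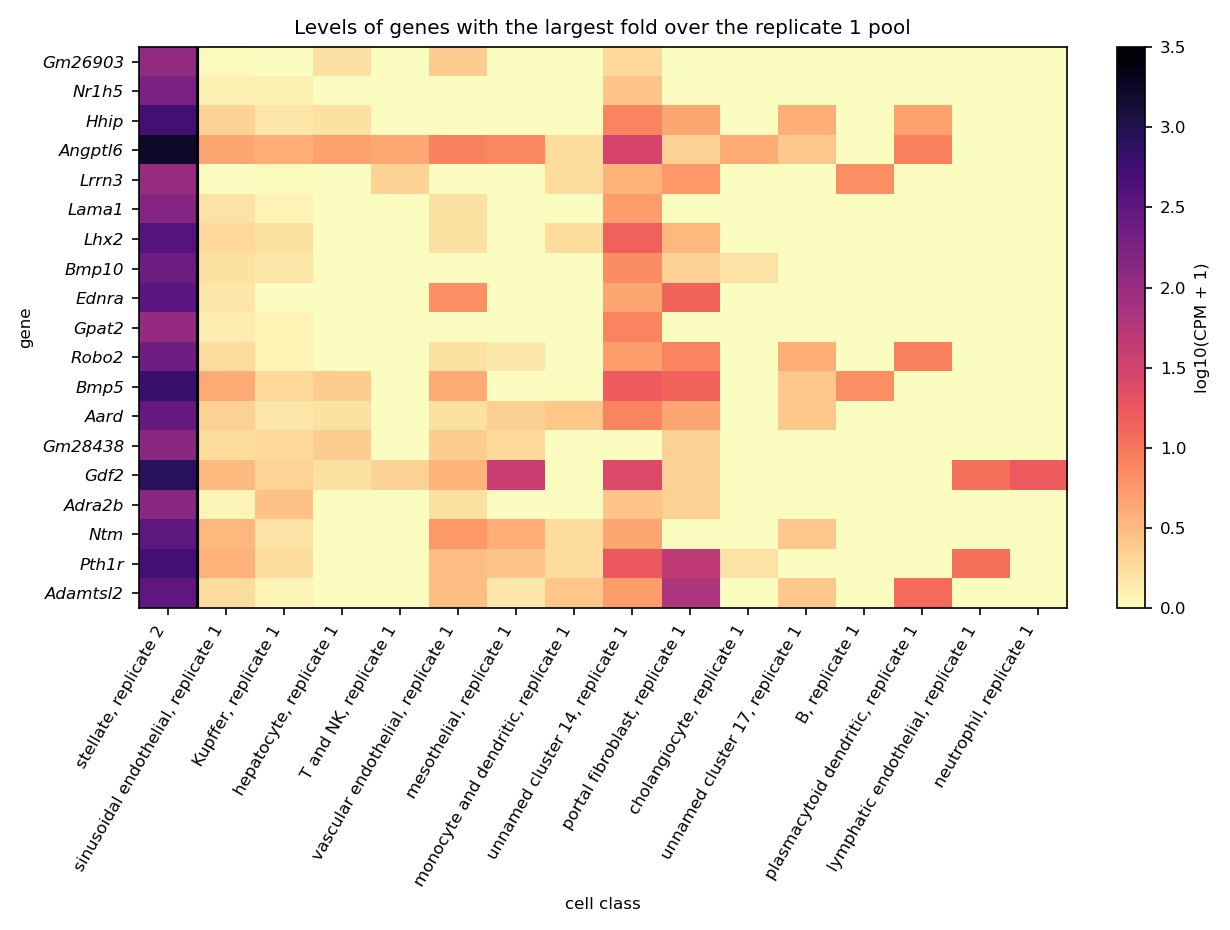
Heat map of 19 of the 20 genes with the largest fold over the replicate 1 pool and at least 100 CPM, on a log10(CPM + 1) colour scale, with the stellate cells of replicate 2 in the left column and the classes of replicate 1 with at least 20 cells to its right. All 19 genes are darkest in the stellate column. Some show colour elsewhere, such as Pth1r and Adamtsl2 in portal fibroblasts, at 44.2 and 63.9 CPM, and Gdf2 in mesothelial cells, at 37.5 CPM. Gm28438 is among the 19, and its fold is not read as a difference between cell types because its split from mt-Nd3 went with the library.

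Because the pool is mostly endothelial cells and Kupffer cells, the stellate cells were also set against each class of replicate 1 separately. At least 2-fold above every class of 20 or more cells were 294 of 12886 genes (2.28%). The genes that chose the cells, Lrat, Dcn, Reln, Colec11 and Ecm1, are among the 294. A gene could reach the minimum of 50 UMIs through the stellate cells alone. Some of the 294 therefore rest on 0 or 1 UMI in the highest class, with intervals that reach below 2-fold. Gm11444 had 50 UMIs in the stellate cells and 0 in the classes, with a lower end of 0.19. Frem1 had 237 UMIs against 1, with a lower end of 0.70. The class next below was the portal fibroblast class for 77 of the 294 genes and the mesothelial class for 38. For 24 it was unnamed cluster 14, whose leading genes include Top2a and Mki67. That cluster was next below for Nr1h5, Hhip, Lhx2, Angptl6, Bmp5 and Bmp10. Sprn, which encodes the prion-like protein shadoo, stood at 52.2 CPM in the stellate cells and at 0.14 CPM, 2 UMIs, in the highest class of replicate 1, the sinusoidal endothelial cells. Adamts13, the protease that cleaves von Willebrand factor, stood at 66.2 CPM in the stellate cells and at 1.5 CPM, 1 UMI, in its highest class, a ratio of 44.2 (7.92 to 1750). Rgs5, a regulator of G protein signalling and a pericyte gene, stood at 2350 CPM in the stellate cells and 84.7 CPM in vascular endothelial cells, the highest class. A smooth muscle-like class of 18 cells was too small for this comparison. When it was added, 54 of the 294 genes were no longer 2-fold above every class and 240 remained, and Des, Mylk, Rgs4, Pde3a and Foxf1 were among those lost.

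**Figure D2:**
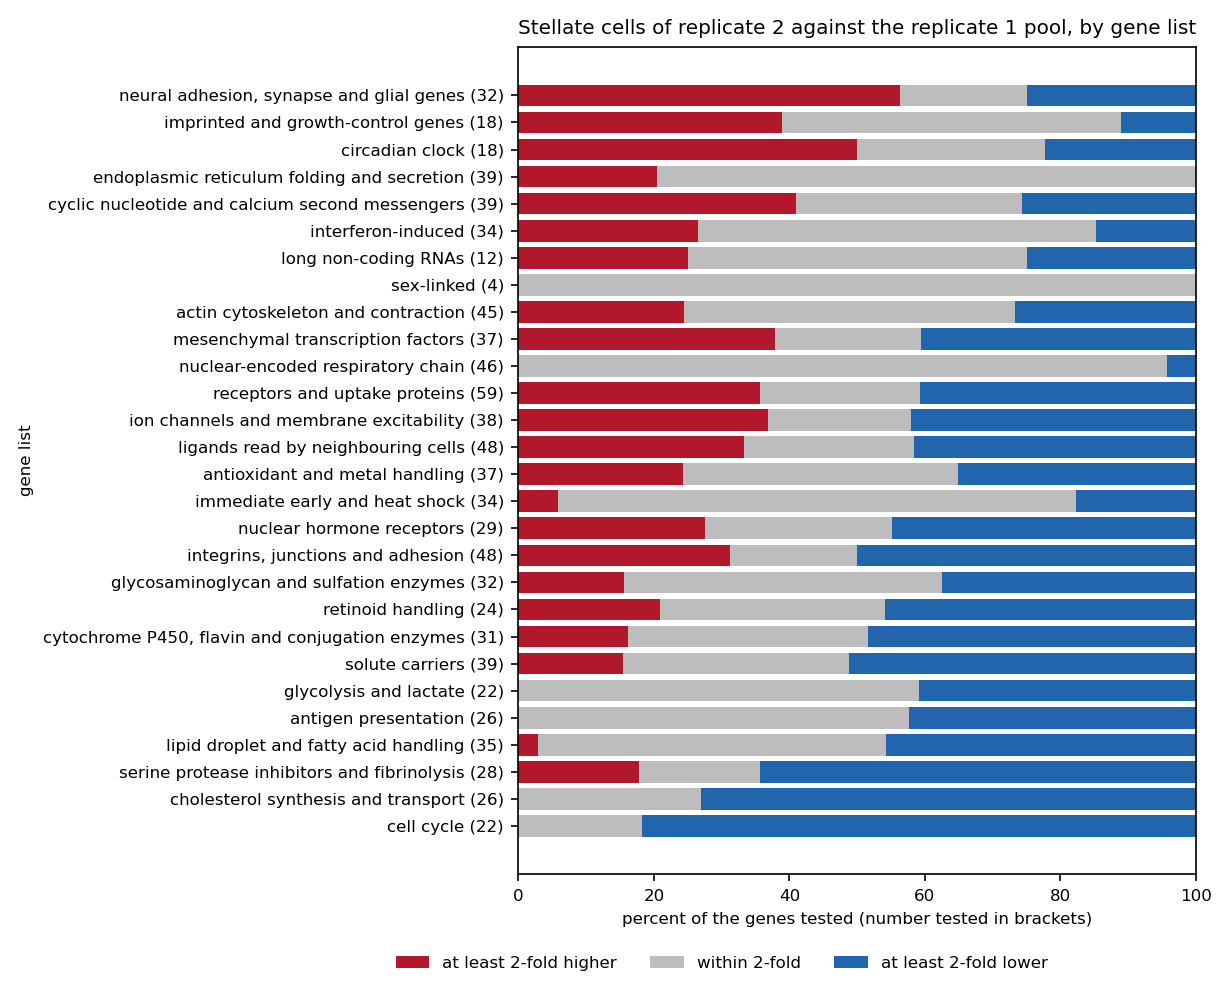
Share of the tested genes of 28 gene lists that were at least 2-fold higher, within 2-fold or at least 2-fold lower in the stellate cells of replicate 2 than in the replicate 1 pool, with the number tested in brackets. Neural adhesion genes stand at the top with 18 of 32 higher, and cell cycle genes at the bottom with 18 of 22 lower.

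List counts here and below are to be read beside the shares over all tested genes, 11.9% higher and 28.9% lower. Of 37 mesenchymal and lineage transcription factors tested, 14 were higher and 15 lower in the stellate cells, with a median log2 fold of -0.15 beside -0.22 over all genes. Tcf21, a helix-loop-helix factor of mesenchymal progenitors, had 499 CPM in the stellate cells and 3.85 CPM in the pool, and Tbx20, a T-box factor known from the heart, had 178 CPM in the stellate cells and 1.65 CPM in the pool. Hand2, a helix-loop-helix factor of mesoderm, had 775 CPM in the stellate cells and 7.67 CPM in the pool. Lower members included factors of other lineages. Spi1 of myeloid cells had 2.19 CPM in the stellate cells and 140 CPM in the pool, and Osr1, highest in mesothelial cells, had no UMI in the stellate cells and 17.4 CPM in the pool. Of 29 nuclear hormone receptors tested, 8 were higher and 13 lower. Besides Nr1h5, the bile acid receptor Nr1h4 had 288 CPM in the stellate cells and 5.60 CPM in the pool, and at most 62.3 CPM in any class, the hepatocytes. The adipocyte regulator Pparg was at 0 UMIs in the stellate cells and 5.15 CPM in the pool.

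Hand2 stood within a cluster of 4 genes on chromosome 8 that were all above every class of replicate 1, and these neighbours were looked up after their values were seen. Of the 294 genes above every class 10 (3.40%) had another of the set starting within 10000 bases. The share was 8.66% within the genes higher than the pool and 31.5% within all tested genes. It depends on the size of the set, so these shares are not alike. Besides the loci below, the pairs were Masp1 with Gm45338 and Spry1 with Gm43820. Hand2 (GRCm38, chr8:57320983-57324633, plus strand) overlaps the antisense RNA Hand2os1 by 3251 bases, and the lincRNA 5033428I22Rik starts 7885 bases from the start of Hand2os1 and 2467 bases from that of the lincRNA Gm34030. Hand2os1 had 641 CPM in the stellate cells and 4.96 CPM in the pool, 5033428I22Rik had 68.4 CPM in the stellate cells and 1.14 CPM in the pool, and Gm34030 had 45.1 CPM in the stellate cells and 1.14 CPM in the pool. The call of Gm34030 did not hold once the smooth muscle-like class was added. A similar pair stood elsewhere on the chromosome. There the forkhead factor Foxf1, which acts in visceral mesoderm, and the divergent RNA Fendrr start 1276 bases apart. Foxf1 had 212 CPM in the stellate cells and 3.5 CPM in the pool, and Fendrr had 162 CPM in the stellate cells and 1.54 CPM in the pool. The call of Foxf1 did not hold either once the smooth muscle-like class, at 191 CPM, was added. Across 2296 cells thinned to 2000 UMIs each, the Pearson correlation of Hand2 with Hand2os1 was 0.09 and that of Foxf1 with Fendrr -0.03, which describes sparse counts of 1 library. Whether strand was used in counting is not given in the sources used here, so UMIs of Hand2 and of Hand2os1 in their shared bases cannot be told apart.

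The promoters of Hand2 and Fendrr are shown because these loci carry RNAs that were high together. Each runs 5′ to 3′ from 250 bases before to 50 bases after the start, from RefSeq (GRCm38.p6), and capitals mark the 1 match each held among 5 motifs searched on both strands. The Hand2 window (chr8:57320733-57321032, plus strand) holds the LIM homeodomain letters TAATTA, and the Fendrr window (chr8:121083061-121083360, minus strand) holds the forkhead letters GTAAACA.
Hand2: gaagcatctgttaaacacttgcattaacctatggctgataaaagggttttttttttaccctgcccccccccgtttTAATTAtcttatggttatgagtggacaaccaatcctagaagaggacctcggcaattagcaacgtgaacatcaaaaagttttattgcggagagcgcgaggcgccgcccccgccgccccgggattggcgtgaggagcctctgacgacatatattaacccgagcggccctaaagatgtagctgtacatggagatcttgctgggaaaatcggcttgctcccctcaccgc
Fendrr: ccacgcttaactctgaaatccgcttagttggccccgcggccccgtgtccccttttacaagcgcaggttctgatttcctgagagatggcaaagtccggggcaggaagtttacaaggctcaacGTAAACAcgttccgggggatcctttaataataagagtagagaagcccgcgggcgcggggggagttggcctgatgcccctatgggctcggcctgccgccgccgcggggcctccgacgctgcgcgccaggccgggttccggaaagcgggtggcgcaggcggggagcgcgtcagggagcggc
TAATTA occurred in 6.12% and GTAAACA in 4.05% of all 27025 genes with a promoter window, and in 4.32% and 4.86% of the 185 genes above every class that had one. These matches are a description of the letters only.

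Of 59 receptors and uptake proteins tested, 21 were higher and 24 lower, and 11 were above every class. Over all tested genes 11.9% were higher, 28.9% lower and 2.28% above every class. Ednra, the endothelin A receptor, had 341 CPM in the stellate cells and 1.22 CPM in the pool, a 279-fold difference (209 to 382). Agtr1a, an angiotensin II receptor, had 418 CPM in the stellate cells and 7.32 CPM in the pool, and Pth1r, the parathyroid hormone receptor, had 552 CPM in the stellate cells and 3.69 CPM in the pool. Adra2b, an adrenergic receptor, had 132 CPM in the stellate cells and 0.82 CPM in the pool, and Robo2, a receptor for Slit guidance cues, had 225 CPM in the stellate cells and 0.93 CPM in the pool. Lower members included the macrophage receptor Csf1r and the hepatocyte growth factor receptor Met, with Csf1r at 7.84 CPM in the stellate cells and 596 CPM in the pool and Met at 0 UMIs in the stellate cells and 9.95 CPM in the pool.

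Genes that turn such signals into contraction or relaxation went both ways, beside 11.9% higher and 28.9% lower over all tested genes. Of 39 genes for cyclic nucleotide and calcium messengers, 16 were higher and 10 lower, with a median log2 fold of 0.27. Gucy1a1 and Gucy1b1, the subunits of the guanylate cyclase that senses nitric oxide, had 583 and 470 CPM in the stellate cells, against 13.1 and 8.46 CPM in the pool. Of 38 ion channel genes 14 were higher and 16 lower. Abcc9 and Kcnj8, the regulatory and pore subunits of a vascular ATP-sensitive potassium channel, had 1616 and 347 CPM in the stellate cells, against 14.2 and 4.56 CPM in the pool. Piezo2, a mechanically gated channel, had 101 CPM in the stellate cells and 4.19 CPM in the pool, but lymphatic endothelial cells of replicate 1 had 127 CPM. Among 45 actin and contraction genes 11 were higher and 12 lower, and the intermediate filament gene Des had 251 CPM in the stellate cells and 12.1 CPM in the pool.

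Genes best known from neurons and glia had the largest share of higher members among the tested genes of any list. These were 18 of 32, with 8 lower and a median log2 fold of 1.24. The list held 54 genes, and a gene could reach the minimum of UMIs through the stellate cells alone or the pool alone. The lists were chosen with earlier results known, so this rank is a description only. Ntm, a neuronal cell adhesion protein, had 311 CPM in the stellate cells and 1.99 CPM in the pool. Lrrc4c, a ligand of netrin G, had 76.9 CPM in the stellate cells and 0.48 CPM in the pool. Grid1, a glutamate receptor subunit of the delta family, had 8.60 CPM in the stellate cells and 0.03 CPM, 1 UMI, in the pool, a ratio of 324 (56.8 to 12918). The glial markers S100b and Cdh19 were at 0 UMIs in the stellate cells. The mesothelial adhesion gene Gpm6a also had no UMI in the stellate cells and 95.8 CPM in the pool.

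Of 48 ligands known to act on neighbouring cells, 16 were higher and 20 lower. Cxcl12, a chemokine for lymphocytes, had 5031 CPM in the stellate cells and 45.6 CPM in the pool. Il34, a ligand of the macrophage receptor Csf1r, had 103 CPM in the stellate cells and 1.38 CPM in the pool, and Angptl2 had 492 CPM in the stellate cells and 8.49 CPM in the pool. Il6 was on the other side, with 0.76 CPM in the stellate cells and 187 CPM in the pool. Among 28 serine protease inhibitors and fibrinolysis genes 5 were higher and 18 lower.

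Of 24 retinoid genes tested, 5 were higher and 11 lower, with a median log2 fold of -0.67. Bco1, which cleaves beta-carotene into retinal, had 191 CPM in the stellate cells and 1.41 CPM in the pool. Aldh1a3 and Aldh1a1, which oxidise retinal to retinoic acid, had 62.3 and 242 CPM in the stellate cells, against 0.98 and 92.9 CPM in the pool. Aldh1a2, another such enzyme, had no UMI in the stellate cells and 12.7 CPM in the pool. Cyp26b1, which degrades retinoic acid, had 23.9 CPM in the stellate cells and 606 CPM in the pool. The plasma carriers Rbp4 and Ttr, made by hepatocytes, had 4.89 and 8.60 CPM in the stellate cells, against 235 and 448 CPM in the pool.

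Most lipid genes that differed were lower than in the pool. Of 35 genes for lipid droplets and fatty acids, 1 was higher and 16 lower, and of 26 genes for cholesterol synthesis and transport 0 were higher and 19 lower, with a median log2 fold of -1.40. The higher gene was Acaca, the acetyl-CoA carboxylase that starts fatty acid synthesis, with 31.3 CPM in the stellate cells and 12.2 CPM in the pool. Sqle, the squalene epoxidase of sterol synthesis, had 0.67 CPM in the stellate cells and 8.44 CPM in the pool. Apoe, the apolipoprotein that carries most UMIs of the cholesterol list, lay within 2-fold at 11542 CPM in the stellate cells and 6249 CPM in the pool. Glycolysis genes were lower in 9 of 22 and higher in 0. Nuclear genes of the respiratory chain lay within 2-fold in 44 of 46, and ribosomal protein genes in 84 of 85.

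Among 37 antioxidant and metal-handling genes 9 were higher and 13 lower. Sod3, the extracellular superoxide dismutase, had 1467 CPM in the stellate cells and 17.9 CPM in the pool, and Cygb, the cytoglobin first described in stellate cells, had 803 CPM in the stellate cells and 30.5 CPM in the pool, with portal fibroblasts close behind at 772 CPM. Hmox1, which breaks down haem in macrophages, had 17.9 CPM in the stellate cells and 614 CPM in the pool. Of 32 glycosaminoglycan and sulfation enzymes 5 were higher and 12 lower. Papss2, which makes the sulfate donor, had 340 CPM in the stellate cells and 13.3 CPM in the pool. Of 39 genes for folding and secretion in the endoplasmic reticulum 8 were higher and 0 lower, among them Pdia3, a disulfide isomerase, with 531 CPM in the stellate cells and 182 CPM in the pool.

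Interferon-induced genes did not move one way, with 9 of 34 higher and 5 lower. Ifitm1, a membrane protein that restricts viral entry, had 2268 CPM in the stellate cells and 27.3 CPM in the pool, although neutrophils of replicate 1 had 1686 CPM. Isg15, a ubiquitin-like protein, had 152 CPM in the stellate cells and 18.1 CPM in the pool. Rsad2, which encodes viperin, had 17.4 CPM in the stellate cells and 123 CPM in the pool. Genes of antigen presentation were lower in 11 of 26 and higher in 0, led by the class II gene H2-Eb1 with 4.13 CPM in the stellate cells and 713 CPM in the pool.

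Of 48 integrin, junction and adhesion genes 15 were higher and 24 lower. Cdh2, the mesenchymal N-cadherin, had 389 CPM in the stellate cells and 6.37 CPM in the pool, whereas the epithelial Cdh1 had no UMI in the stellate cells and 20.4 CPM in the pool. Of 31 drug-metabolising enzymes 5 were higher and 15 lower, and of 39 solute carriers 6 were higher and 20 lower. Imprinted genes were higher in 7 of 18, led by Ndn with 84.3 CPM in the stellate cells and 11.9 CPM in the pool. Malat1, a nuclear RNA, had 46206 CPM in the stellate cells and 15772 CPM in the pool. Proliferation genes were low against the pool, with 0 of 22 higher and 18 lower. The pool includes the 130 cells of unnamed cluster 14, whose leading genes include Top2a and Mki67. Its part in these values was not tested. At least 2 UMIs of Mki67 and Top2a were held by 4 of 2341 stellate cells (0.171%, exact binomial interval 0.0466 to 0.437) and by 164 of 6765 pool cells (2.42%, 2.07 to 2.82).

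Among the genes that were lowest against the pool, 9 of those with at least 100 CPM there had no UMI in any stellate cell. They included Slpi, a secreted protease inhibitor with 464 CPM in the pool, Igfbp6 with 387 CPM, and the epithelial keratins Krt8 and Krt18 with 149 and 141 CPM. A count of 0 among 2341 cells allows at most 0.311 CPM at the upper end of the Poisson interval. Spp1, osteopontin, which cholangiocytes make, had 5 UMIs in the stellate cells and 779 CPM in the pool, and the binding protein Igfbp5 had 7 UMIs in the stellate cells and 785 CPM in the pool.

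Clock genes differed in opposite directions. In the circadian clock Arntl and Clock drive transcription of Dbp, Tef, Hlf and the Per, Cry and Nr1d genes through E-boxes, and the Nr1d proteins repress Arntl, Nfil3 and Npas2 through ROR elements. Of 18 clock genes tested, 9 were higher in the stellate cells and 4 lower, with a median log2 fold of 1.14. Dbp had 218 CPM in the stellate cells and 29.8 CPM in the pool, a 7.32-fold difference (6.82 to 7.86), and at most 133 CPM in any class of replicate 1. Hlf, Tef and Cry2 were 4.92-fold, 3.63-fold and 3.29-fold higher, and the others higher were Per2, Per3, Nr1d1, Nr1d2 and Bhlhe41, at 3.02-fold to 3.28-fold. Portal fibroblasts of replicate 1 had 75.5 CPM of Hlf and 41.8 CPM of Cry2, the highest of any class. None of the 18 clock genes was 2-fold above every class. Arntl had 0.67 CPM in the stellate cells, 8 UMIs, and 18.3 CPM in the pool, a ratio of 0.04 (0.02 to 0.07). Nfil3 had 1.01 CPM in the stellate cells and 13.1 CPM in the pool, and Npas2 had 0.42 CPM in the stellate cells and 1.43 CPM in the pool. Clock itself, Per1, Cry1, Ciart and Bhlhe40 lay within 2-fold.

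**Figure D3:**
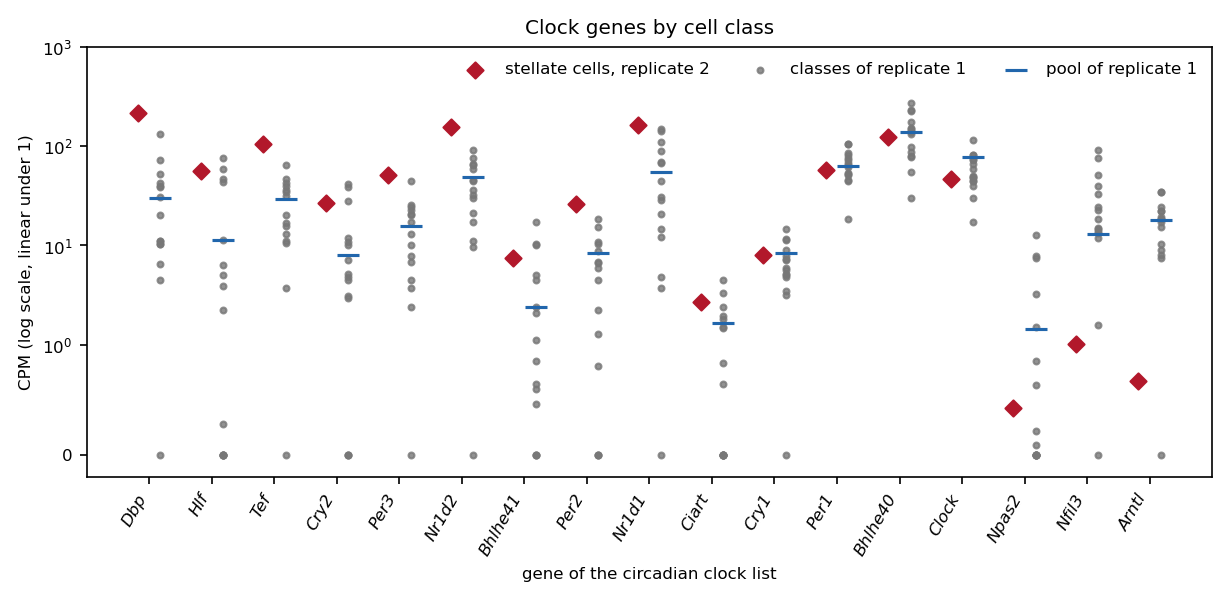
Level of 17 of the 18 clock genes in CPM on a log scale that is linear under 1, in the stellate cells of replicate 2 (red diamonds) and in the classes (grey) and the pool (blue bars) of replicate 1. Dbp, Tef, Per3, Nr1d2, Per2 and Nr1d1 lie above all classes, and Arntl lies at 0.67 CPM at the right, below all but 1 class.

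The same clock genes were read in 10 cells of replicate 1 that clustered as stellate-like. Over Dbp, Tef and Hlf together the stellate cells of replicate 2 had 380 CPM (369 to 391), these 10 cells had 2 UMIs, 58.1 CPM (7.03 to 210), and the pool had 70.3 CPM. At the level of replicate 2, 13.1 UMIs would have been counted. Both UMIs lay in the 7 of these cells that held at least 10 UMIs of the 5 marker genes. Over Nr1d1 and Nr1d2 the stellate cells of replicate 2 had 320 CPM, the 10 cells of replicate 1 had 145 CPM (47.1 to 339), and the pool had 103 CPM. The time of day of each dissection is not given in the labels, and its part in these values was not tested.

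The promoters of Tef, Bhlhe41 and Arntl are shown because they hold the letters of these clock elements. Capitals mark the E-box CACGTG in Tef (chr15:81802423-81802722, plus strand) and Bhlhe41 (chr6:145865371-145865670, minus strand), and the ROR element, a half-site of nuclear receptors behind an A- and T-rich stretch, in Arntl (chr7:113207261-113207560, plus strand), where it begins 27 bases after the start.
Tef: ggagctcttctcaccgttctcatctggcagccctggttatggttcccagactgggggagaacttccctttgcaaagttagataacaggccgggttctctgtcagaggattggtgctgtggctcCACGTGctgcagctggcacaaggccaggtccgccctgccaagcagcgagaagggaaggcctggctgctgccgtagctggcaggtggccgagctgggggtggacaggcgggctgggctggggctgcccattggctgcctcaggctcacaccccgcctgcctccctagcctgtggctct
Bhlhe41: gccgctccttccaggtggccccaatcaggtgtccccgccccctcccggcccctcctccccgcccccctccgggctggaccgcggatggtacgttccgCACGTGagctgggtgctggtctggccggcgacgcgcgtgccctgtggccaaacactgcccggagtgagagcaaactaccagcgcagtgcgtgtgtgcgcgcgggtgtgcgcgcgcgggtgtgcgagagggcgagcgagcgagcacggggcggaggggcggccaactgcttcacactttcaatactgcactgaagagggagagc
Arntl: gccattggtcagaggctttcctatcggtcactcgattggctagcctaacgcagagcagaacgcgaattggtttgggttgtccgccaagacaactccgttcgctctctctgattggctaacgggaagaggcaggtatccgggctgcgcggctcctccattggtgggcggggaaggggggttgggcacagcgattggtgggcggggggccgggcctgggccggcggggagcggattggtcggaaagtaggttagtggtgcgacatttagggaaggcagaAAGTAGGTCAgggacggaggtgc
CACGTG was present on either strand in 5 of the 15 clock genes with a window (33.3%), in 11.4% of the tested genes with one and in 8.09% of all genes with one. Besides Tef and Bhlhe41 the 5 were Ciart, Cry1 and Per1, which lay within 2-fold. The windows of Dbp, Hlf, Nr1d1, Nr1d2, Per3 and Cry2, which were higher, held no CACGTG. The ROR element was present in 1 of the 15, Arntl, and in 0.259% of all genes. Another window of Arntl lacked it, as did those of Npas2 and Nfil3.

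The cells of replicate 1 that clustered with the stellate cells of replicate 2 formed the stellate-like class, 10 cells with 34450 UMIs. Other cells of replicate 1 also held at least 10 UMIs of the 5 marker genes outside any named class. These were 2 cells of unnamed cluster 14, 1 of unnamed cluster 17 and 6 above the mitochondrial limit. Whether they are stellate cells was not tested. The 10 cells of the class are not uniform. Their sums over the 5 marker genes were 3, 19, 28, 0, 129, 23, 7, 300, 221 and 46 UMIs, and the cell at 0 held 546 UMIs of the skeletal muscle genes Acta1, Tnnc2, Mylpf, Ckm, Tnni2 and Tnnt3. The class came from clustering both libraries together on expression, so its likeness to the stellate cells of replicate 2 was partly fixed by that choice, and its values are a description. Leaving out the 5 marker genes, 164 genes higher in the stellate cells of replicate 2 were deep enough to be read, and 124 of them were at least 2-fold higher in the 10 cells than in the pool of their own library, while 10 were on the other side of the pool. Of 192 lower genes 151 were at least 2-fold lower there and 6 were on the other side. The share of all genes past 2-fold between the 10 cells and the pool is not given here, so these counts lack a background. Hhip had 290 CPM in these cells, Gdf2 726 CPM and Angptl6 1016 CPM, each from 10 to 35 UMIs.

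Between the stellate cells of replicate 2 and the 10 cells of replicate 1, 489 genes had enough UMIs. Of these 74 (15.1%) were at least 2-fold higher in replicate 2 and 20 (4.09%) at least 2-fold lower. These counts depend on which cells of replicate 1 are taken: without the cell with skeletal muscle RNA 49 were higher and 14 lower, and with cells taken by the same marker sum outside other named classes 293 were higher and 102 lower. Immediate early genes, which are induced within minutes by stress or growth factors and also by tissue dissociation, were frequent among the higher ones: 14 of the 20 tested genes of the immediate early and heat shock list were higher and 1 lower. Jun had 3605 CPM in the stellate cells of replicate 2 and 668 CPM in the stellate-like cells of replicate 1, a 5.40-fold difference (3.60 to 8.52). Fos had 3789 CPM in replicate 2 and 900 CPM in the stellate-like cells of replicate 1, a 4.21-fold difference (2.97 to 6.2), and Egr1 had 1712 CPM in replicate 2 and 406 CPM in the stellate-like cells of replicate 1. Heat shock genes differed less. Hspa1a had 445 CPM in replicate 2 and 261 CPM in the stellate-like cells of replicate 1, a 1.70-fold difference (0.90 to 3.72), and was 2.44-fold higher with the 7 of those cells that held 10 marker UMIs. Hsp90ab1 stood at 2050 CPM in replicate 2 and 2409 CPM in the stellate-like cells of replicate 1, and Hspa8 at 543 CPM in replicate 2 and 1132 CPM in the stellate-like cells of replicate 1, which lay within 2-fold with the 7 cells. Compared with the pool of all types, the list had only 2 of 34 genes higher, Jun at 2.50-fold and Fosb at 2.18-fold, and 6 lower.

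**Figure D4:**
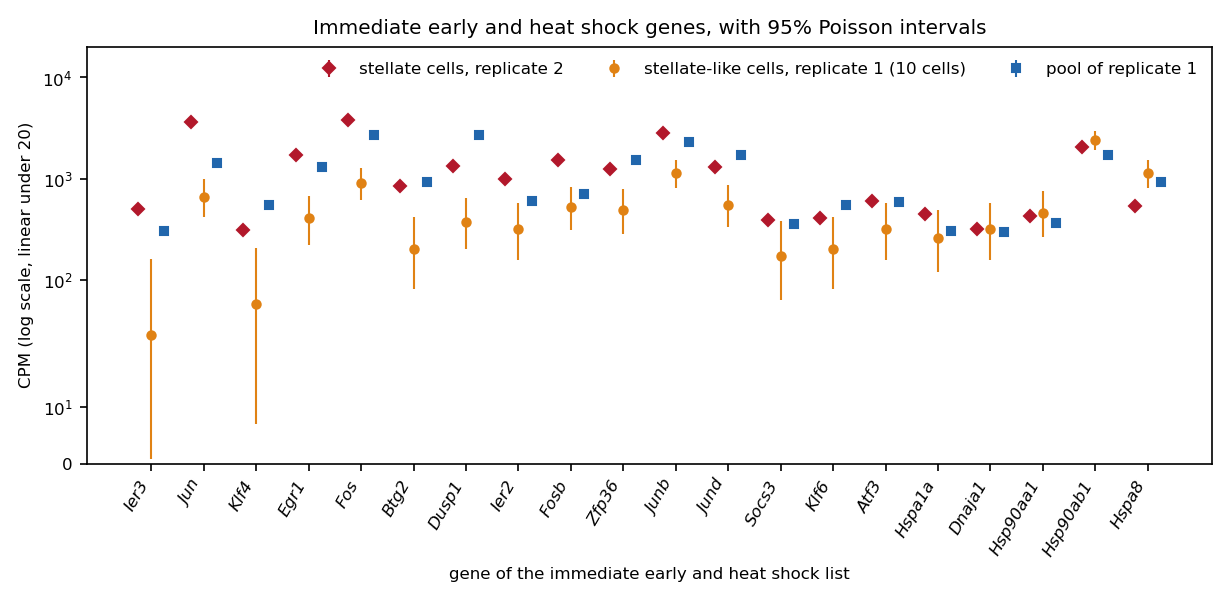
Level of 20 immediate early and heat shock genes in CPM on a log scale that is linear under 20, with 95% Poisson intervals, in the stellate cells of replicate 2 (red), the 10 stellate-like cells of replicate 1 (orange) and the replicate 1 pool (blue). From Ier3 to Hspa1a the orange points lie below the red ones, for Atf3 and Hspa1a by less than 2-fold, and from Dnaja1 to Hspa8 they do not.

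With only the 7 cells that held 10 marker UMIs, 45 of 388 genes were higher and 15 lower, and 15 of the 18 tested genes of the immediate early and heat shock list were higher. Of the 56 genes higher with all 10 cells that could still be tested, 37 remained higher with 7. Also higher in replicate 2 was Ccn1, a matricellular protein, at 683 CPM in replicate 2 and 29 CPM, 1 UMI, in the stellate-like cells of replicate 1, a ratio of 23.5. Vcam1, an adhesion receptor for leukocytes, had 446 CPM in replicate 2 and 58.1 CPM, 2 UMIs, in the stellate-like cells of replicate 1. Lower in replicate 2 were the mitochondrial ribosomal RNA mt-Rnr2, with 4074 CPM in replicate 2 and 11176 CPM in the stellate-like cells of replicate 1, and the muscle-rich genes Aldoa and Slc25a4, at 0.23 and 0.33 of the level in those cells. Without the cell with skeletal muscle RNA these ratios were 0.91 and 0.89, within 2-fold.

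Mitochondrially encoded genes were lower as a group, with 10 of 21 at least 2-fold lower in the stellate cells than in the pool, 1 higher and a median log2 fold of -0.97. The 10 include mt-Nd3, which is read below only in sum with Gm28438. mt-Nd3, a subunit of respiratory complex I, was the extreme, with 5 UMIs in the stellate cells, 0.42 CPM, and 303 CPM in the pool, and at least 126 CPM in every class of replicate 1. Gm28438, an unprocessed pseudogene on chromosome 1 (GRCm38, chr1:24612775-24613119, minus strand), went the other way with 127 CPM in the stellate cells and 0.74 CPM in the pool. The mitochondrial pseudogenes Gm28437, Gm10925, Gm28661 and Gm29216 did not, with 0.25 to 1.10 CPM in the stellate cells and 6.47 to 17.8 CPM in the pool. In the GENCODE vM21 transcripts 344 of 345 aligned bases of mt-Nd3 and Gm28438 are identical. The 1 difference is T3C, with mt-Nd3's base first and positions counted from the first base of the transcript. The first 60 bases of each are shown with the differing base in capitals.
mt-Nd3: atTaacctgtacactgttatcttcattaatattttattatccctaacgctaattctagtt
Gm28438: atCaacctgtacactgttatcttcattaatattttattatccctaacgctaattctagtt
Of the UMIs at either gene 99.7% (99.2 to 99.9) lay at Gm28438 in the stellate cells of replicate 2, against 0.244% (0.162 to 0.353) in the pool and 0 to 0.697% in the 15 classes of replicate 1. The stellate-like cells of replicate 1 had 8 UMIs at mt-Nd3 and 0 at Gm28438. Summed over both genes the level was 127 CPM in the stellate cells of replicate 2 and 304 CPM in the pool, a log2 fold of -1.26, beside -1.28 for mt-Nd2 and -1.16 for mt-Cytb. The split between the near-identical copies went with the library, so neither gene's own fold is read as a difference between cell types. Gm28438 is among the 294 genes above every class.

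Variation among the stellate cells was read after each cell was thinned to 2000 UMIs, which left 2296 cells and dropped 45. Of 3377 genes with a mean of at least 0.1 UMIs per thinned cell, the median Fano factor, the variance over the mean, was 1.03, and 99 genes reached 1.5. The Fano factor was 19.4 for Gm42418, which overlaps an annotated ribosomal RNA on chromosome 17, and 12.6 for Malat1. Chemokines followed. Ccl2, a monocyte chemokine, had a factor of 9.39, was at 0 UMIs in 75.8% of the thinned cells and reached 71 UMIs in 1 cell, and the highest 5% of cells held 58.5% of its UMIs. Cxcl10, an interferon-induced chemokine, had a factor of 4.77 and was at 0 UMIs in 77.0% of the thinned cells. The rule gene Dcn had a factor of 4.44, with 31, 54 and 82 UMIs at the 5th percentile, the median and the 95th percentile.

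**Figure D5:**
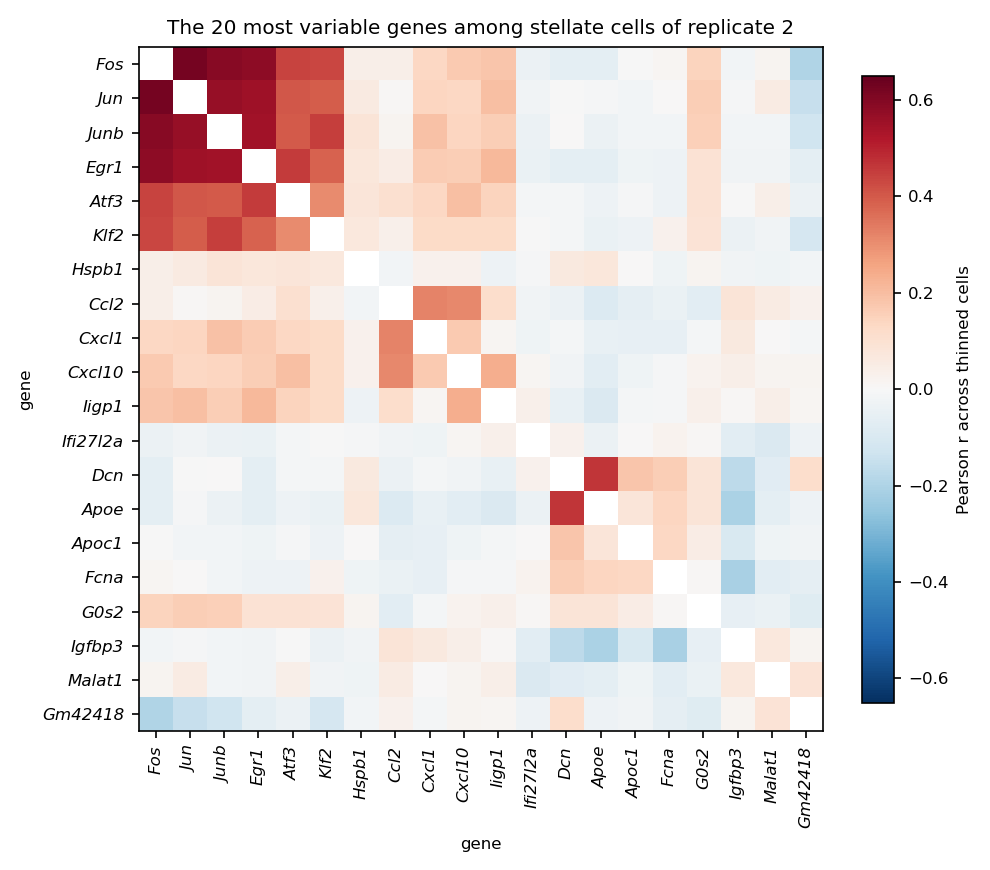
Pearson correlation across 2296 thinned stellate cells of replicate 2 between the 20 genes with the largest Fano factor. Fos, Jun, Junb and Egr1 form a block at 0.55 to 0.62, Ccl2 correlates with Cxcl1 and Cxcl10 at 0.32 and 0.31, and Dcn with Apoe at 0.47.

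The variable genes fell into few groups by their correlations, which share 1 library and are given as a description. Fos and Jun correlated at 0.62, and Fos was at 0 UMIs in 7.06% of the thinned cells and at 17 UMIs at the 95th percentile. Apoe, an apolipoprotein, correlated with Dcn at 0.47 and with Rspo3, an enhancer of Wnt signalling, at 0.31. Igfbp3, a binding protein of insulin-like growth factors, correlated with fibronectin (Fn1) at 0.32, Col14a1 at 0.27 and Tagln at 0.24, and with Apoe at -0.20. Hand2, far above the pool, had a Fano factor of 1.31 at a mean of 1.56 UMIs per thinned cell. Fano factors were not adjusted for the mean, which was 54.8 UMIs for Dcn, so they do not rank relative variation. The BMP ligands Gdf2 and Bmp10 had a UMI in 80.7% and 36.9% of the thinned cells, and Bmp10 was seen in 37.4% of cells with Gdf2 and 34.8% of cells without. Of sex-linked genes, Xist had 0 UMIs in the stellate cells and 4 UMIs in the pool, and the Y-linked Ddx3y had 103 CPM in the stellate cells and 138 CPM in the pool.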

How the data were processed

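Single-cell RNA of mouse liver was counted in 2 libraries, WT replicate 1 and WT replicate 2, with 1 label each and no pairing. The deposited table holds raw counts of UMIs per gene (22508) and cell (9703), and the number ending each cell name was read as the replicate. Per the submitters' processing notes the tools named are Cell Ranger 2.1.1 and Seurat 3.1 and the build is GRCm38. Which cells had been removed before, how genes were counted by strand and whether doublets were removed are not given in the sources used here.

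UMIs were summed over cells and given as CPM. Genes with at least 50 UMIs over both sides, and not at or under 3 on both, were compared by the ratio of CPM. A gene was called at 2-fold. Ratios have exact conditional binomial intervals, CPM exact Poisson intervals and shares exact Clopper-Pearson intervals, at 95% and for counting error only. Genes at 0 on 1 side were set to 3 counts. No p-value was computed. Classes of replicate 1 came from joint clustering in scanpy 1.11.5 (counts scaled to 10000, log-transformed, 2000 variable genes, 30 principal components, 15 neighbours, Leiden resolution 1). A cluster was named from at least 3 fixed markers. Doublets were not called, and an alternative dropped the highest 5% of UMIs. Free RNA was not subtracted. For the comparison with the stellate-like cells of replicate 1, at least 10 UMIs were expected in the smaller side. The ratio was tested on simulated data.

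The stellate cells, the 28 gene lists and the markers were chosen with earlier results of these data known. The genes named were the 20 highest and 20 lowest against the pool, up to 4 on each side of each list, the 20 most abundant, most variable and farthest above every class, the 10 farthest on each side between the libraries, and markers. Genes outside that rule, among them the rest of the clock and immediate early genes, the correlation partners and the neighbours on a chromosome, were chosen after their values were seen. Coordinates are GENCODE vM21 on GRCm38, where 22457 symbols had 1 gene, and promoters are RefSeq GRCm38.p6. Pool size, scaling, depth and class limits were varied as alternatives. Some genes that the rule names are not reported here.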

Additional observations from a re-analysis of the deposited data

Results flagged for a closer look

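Among the 597 cells of replicate 1 above 20% mitochondrial UMIs, which no comparison used, 6 held at least 10 UMIs of the 5 stellate marker genes (1.01%, exact binomial interval 0.370 to 2.17), with sums of 12 to 121 UMIs. They were flagged because this exceeds 0.503%, the limit of 3 counts used here for a count of 0 among these cells, although the interval includes that limit. What these cells are was not tested.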

How the results depend on the processing

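No paired analysis was possible because each cell group comes from 1 library, and for the same reason no replicate could be left out. Against the pool, 1805 genes were higher and 4374 lower, and these counts stayed within 1.5 times under the settings tried except that 3562 were higher with no minimum of UMIs. The 294 genes above every class became 449 at 10 UMIs. Between the libraries, 74 higher and 20 lower genes became 293 and 102 with cells of replicate 1 taken by the same marker sum outside other named classes, and 204 and 52 at 5 expected UMIs. They became 49 higher without the cell with skeletal muscle RNA and 45 higher with the 7 marker-positive cells, both added after the data were seen. The cause was not tested. Over the 11 settings that could change them, 3757 named-gene folds were recomputed: 2582 stayed within their counting interval, 1172 left it with the same direction and 3 reversed, namely Actg2 (log2 1.67 with classes weighted equally) and Dpt (1.74) and Wt1 (2.38) without pool cells holding 10 marker UMIs. Actg2 has no UMI in the stellate cells and its fold is set by the 3-count floor. Of 840 list counts 802 stayed within 1.5 times and 38 did not. The 10 cells hold 34450 UMIs, which limits what can be read between the libraries.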
